A study of Mus musculus with 8 samples.

Results

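The genes described here are the nuclear genes of oxidative phosphorylation, followed across 8 RNA sequencing libraries of mouse 46C cells. They were chosen by symbol: Nduf genes of complex I, Sdha to Sdhd of complex II, Uqcr genes of complex III, Cox4 to Cox8 genes of complex IV and Atp5 genes of complex V, without pseudogenes, with a mean level of 1 or more over the 4 libraries of a day. This gave 82 genes of 22717 in the files. Of these, 79 met the rule at day 5 and 81 at day 0, and 78 did so on both days. Part of this difference lies in naming. Atp5sl matched the rule only by its day 5 symbol and Atp5mpl only by its day 0 symbol. The symbols also take in a few proteins that are not core subunits, such as Cox7a2l, an assembly factor of respiratory supercomplexes, and Atp5s. Ndufa4 is counted with complex I by its symbol, although its protein is known as a subunit of complex IV.

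Oxidative phosphorylation is the route by which mitochondria turn fuel into ATP. Complexes I and II pass electrons from NADH and succinate to ubiquinone, complex III passes them to cytochrome c, and complex IV passes them to oxygen. Protons pumped on the way drive complex V, the ATP synthase. Most subunits are encoded in the nucleus and a few core ones in mitochondrial DNA. Pluripotent stem cells are known for a strong use of glycolysis, and neural differentiation for a growing use of respiration.

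The 46C line is an embryonic stem cell line with a green fluorescent reporter at the neural gene Sox1, and the labels give its strain as C57BL/6. The groups were wild type (WT), LincNDIME_KO (KO, a knockout of a long noncoding RNA by its name), shCtrl (a control hairpin RNA) and shMef2c (a hairpin RNA against Mef2c, a transcription factor gene). Each was sequenced once as stem cells at day 0, grown with serum and LIF on irradiated feeder fibroblasts, and once at day 5, after aggregation in medium with serum replacement, when the labels call them neural progenitors derived from the stem cells. The sources used here do not say whether a line is a single clone. With 1 library per group there is no replicate error, so no p-value is given, every statement describes these libraries, and the ratio of shCtrl to WT, both controls, is the yardstick. Reads assigned to genes numbered 25996204 to 26834802 per library at day 5 and 20312032 to 20883674 at day 0.

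The labels were checked where the files allow. No feature carries the name NDIME, so the knockout was not checked. Mef2c was at 0.45 FPKM in WT, 0.10 in KO, 0.50 in shCtrl and 0.12 in shMef2c at day 5. At day 0 it was at 0.23 RPKM in WT, 0.24 in KO, 0.16 in shCtrl and 0.37 in the library labelled shMef2c. These levels rest on 29, 26, 20 and 44 reads in that order. Mef2c was thus not lower in that library than in shCtrl. So few reads, from cultures on feeders, cannot decide whether Mef2c was knocked down in the stem cells at day 0. The part of feeder RNA in these reads was not tested. FPKM and RPKM are reads scaled to transcript length and library size, so levels of different genes can be compared within a day. The summed level of 8 naive pluripotency genes at day 5 was 831 FPKM in WT, 2013 in KO, 599 in shCtrl and 2521 in shMef2c. That of 8 neural progenitor genes was 325, 95.7, 390 and 36.1. That of 8 neuron genes was 283, 249.8, 412 and 105, and that of 8 visceral endoderm genes 14.6, 118, 67.7 and 28.0. These markers differed between the day 5 cultures, and their part in the ratios below was not tested. In such bulk samples, fewer cells of a type and less RNA per cell cannot be told apart.

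Promoter windows show a feature that some of these genes share and that the symbol rule did not use. NRF1, nuclear respiratory factor 1, is known to bind GC-rich palindromes in front of many respiratory genes. Its letters, taken here as GCGC then NT then GCGC (AN in place of NT on the other strand), were searched in RefSeq windows of 300 bases (build GRCm38.p6, 250 before to 50 after each start). Windows were found for 67 of the 82 genes, 73 windows in all. The letters lay in 18 windows of 17 genes, which is 24.7% of these windows, against 9.49% of the windows of all genes with a mean of 1 or more and 4.60% of all windows. The following 30-base stretches, 1 for each of 6 genes, show the match in capitals in the gene's own direction. They were picked to cover complexes I, II, IV and V and to include Ndufs5, whose level is described below.
Ndufa11 (complex I, chr17:56717692-56717721, plus strand): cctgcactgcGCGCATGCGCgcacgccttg
Ndufs5 (complex I, chr4:123718265-123718294, minus strand): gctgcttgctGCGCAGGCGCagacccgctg
Sdha (complex II, chr13:74350319-74350348, minus strand): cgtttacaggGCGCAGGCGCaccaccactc
Cox6a1 (complex IV, chr5:115349101-115349130, minus strand): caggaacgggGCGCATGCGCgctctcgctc
Atp5g2 (complex V, chr15:102671070-102671099, minus strand): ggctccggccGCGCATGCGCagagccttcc
Atp5k (complex V, chr5:108434430-108434459, minus strand): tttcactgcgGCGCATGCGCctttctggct

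In Ndufa11 the match ended 51 bases before the start, in Atp5g2 33 and in Atp5k 41. Ndufb4, a small accessory subunit of complex I, held 3 matches in its window, and Cox6a1 and Sdha held 2 each. Other searches, on both strands, gave a mixed picture. ATGGCGG, letters bound by YY1, lay in 17.8% of the members' windows and 7.64% of those of all genes with a mean of 1 or more. CCGGAAG, letters of GABPA, lay in 21.9% and 16.9%. GGGCGG, letters of SP1, was less frequent, at 38.4% and 61.8%, and CCAAT lay in 42.5% and 38.4%. A match of letters is a description and not a binding site. At day 5 the 17 genes with the NRF1 letters and the 50 without had median log2 ratios of KO to WT of 0.016 and 0.015. At day 0, with 49 genes without the letters, these were 0.33 and 0.40. For shMef2c over shCtrl the medians were 0.17 and 0.047 at day 5 and -0.017 and 0.017 at day 0. For the control pair, shCtrl over WT, they were -0.015 and 0.070 at day 5 and 0.18 and 0.20 at day 0.

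The respiratory genes were among the most abundant transcripts in every library. Together they held 2.45% to 2.62% of the summed FPKM at day 5 and 2.11% to 2.64% of the summed RPKM at day 0. At day 5 the median level of a gene, taken over the 4 libraries, was 97.7 FPKM for complex I, 94.4 for complex II, 169 for complex III, 306 for complex IV and 318 for complex V. The order was similar at day 0, with medians of 63.1, 76.1, 130, 177 and 241 RPKM. The highest member of each day was Atp5b, the catalytic beta subunit of ATP synthase, with a mean of 757 FPKM and 961 RPKM. In complex IV it was Cox7c, at 637 FPKM and 418 RPKM, and in the Nduf group Ndufa4, at 472 and 279. In complex III it was Uqcrh at day 5 (297 FPKM) and Uqcrb at day 0 (236 RPKM). Among the scarcest at day 5 were Cox7a1 at 10.7 FPKM, Atp5s at 3.58, Ndufa4l2 at 2.12 and Ndufs5 at 1.54. Just outside the rule at day 5 were Cox4i2 (0.77 FPKM), Cox7b2 and Cox8c, and just inside was Ndufs5. At day 0 Cox8c was outside at 0.55 RPKM, and Cox4i2 was inside at 1.61.

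**Figure D1:**
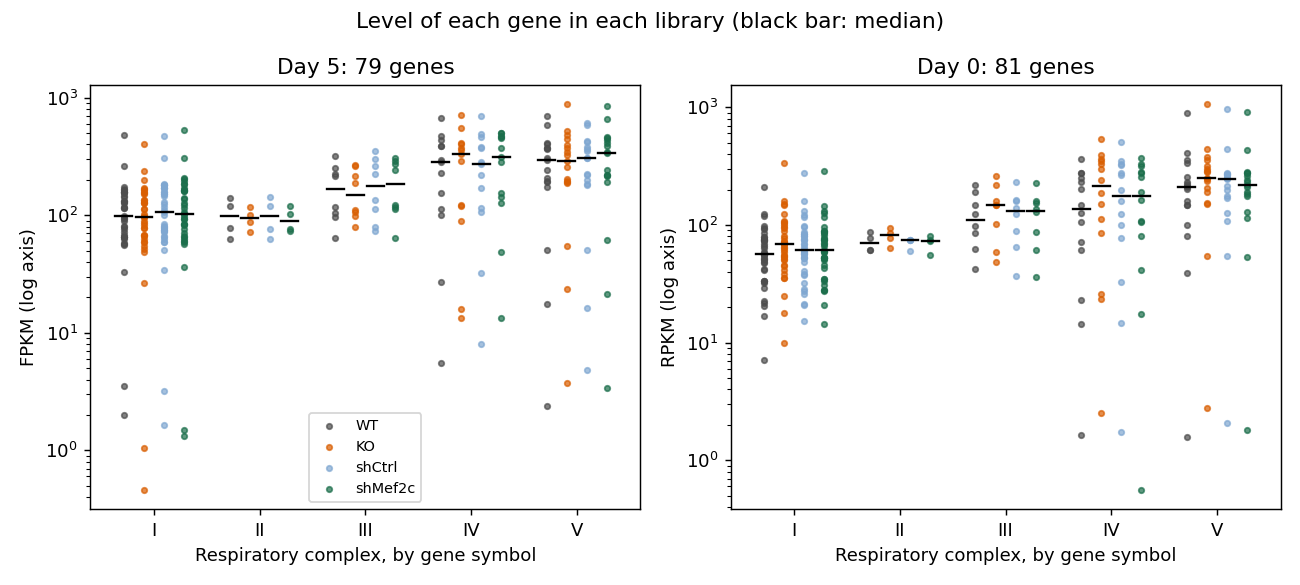
Level of each gene in each library on a log axis, FPKM at day 5 (left) and RPKM at day 0 (right), grouped by complex and coloured by library, with black bars at the medians. The medians of complexes IV and V lie above those of complexes I and II on both days, and at day 0 the WT medians are below the KO medians in all 5 complexes.

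Within a day, the widest shift was at day 0, where KO stood above WT across the group. The median log2 ratio of the 81 genes was 0.35, against 0.027 for all 12065 genes tested, and 74 of the 81 were above 0, where 53.3% of all genes were. In all, 48 genes were higher in KO by 1.2-fold or more, where 22.7% of all genes were, and 1 was lower, where 20.4% were. By 1.5-fold or more, 15 were higher (6.28% of all genes) and none lower (6.66%). By 2-fold or more, 1 was higher (1.3%) and none lower (1.59%). The gene past 2-fold was Ndufa2, an accessory subunit of complex I. WT was the lowest of the 4 libraries for 59 of the 81 genes, where it was the lowest for 33.1% of all genes, and KO the highest for 61 (31.2% of all genes). Counting error alone left 13 of the 81 intervals of the read ratio spanning 1, with 65 above and 3 below. For shCtrl over WT, the control pair, 20 spanned 1, with 52 above and 9 below. Most of these genes hold many reads, which makes such intervals narrow, and no share over all genes is given.

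Ndufa2 stood at 20.6 RPKM in WT, 45.4 in KO, 27.4 in shCtrl and 28.2 in the library labelled shMef2c. KO was the highest and WT the lowest. The KO share of its reads was 2.21 times the WT share, with a 95% Clopper-Pearson interval of 1.90 to 2.58, which covers counting error only. Atp5k, the e subunit of ATP synthase, stood at 80.7, 150, 108 and 115 RPKM in the same order. Cox7a2, the widely expressed isoform of a complex IV subunit, stood at 61.7, 113, 77.5 and 80.1. Uqcr11, a small subunit of complex III, stood at 85.2, 148, 125 and 128. These 4 genes had the highest ratios of KO to WT, and that choice favours the order seen in them, with KO highest and WT lowest. The lowest ratios were those of Ndufv2 (log2 -0.29), a flavoprotein subunit of complex I, Atp5h (-0.21), Ndufv3 (-0.18), Uqcrfs1 (-0.089), the Rieske iron-sulfur protein, and Sdhb (-0.025).

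By complex, the median log2 ratio of KO to WT at day 0 was 0.50 in complex IV, with 14 of 14 genes above 0 (53.3% of all genes). It was 0.35 in complexes I and V, 0.21 in complex III and 0.029 in complex II. The control pair, shCtrl over WT, had the same order of complexes. Its medians were 0.32 in complex IV, 0.21 in V, 0.17 in I, 0.071 in III and -0.046 in II. In complex IV, 13 of 14 genes were above 0 in that pair (51.6% of all genes). Some core subunits differed little: Sdha, the flavoprotein of succinate dehydrogenase, stood at 78.2 RPKM in WT and 77.8 in KO, and Uqcrc1 at 148 and 160. Smaller subunits of complex IV differed more: Cox6c stood at 149 and 243 and Cox6b1 at 202 and 299. In shCtrl, Sdha stood at 74.2 RPKM, Uqcrc1 at 159, Cox6c at 197 and Cox6b1 at 265.

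The control libraries also differed at day 0, in the same direction. The median log2 ratio of shCtrl to WT was 0.20 over the 81 genes and 0.0093 over all genes. Higher by 1.2-fold or more were 26 genes (15.4% of all) and lower 3 (14.6%). By 2-fold or more, Cox6b2 and Ndufa4l2 were higher (0.771% of all genes) and none lower (0.472%). Against shCtrl instead of WT, the median for KO was 0.18. WT was thus the low library of the day, and KO lay above both controls.

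**Figure D2:**
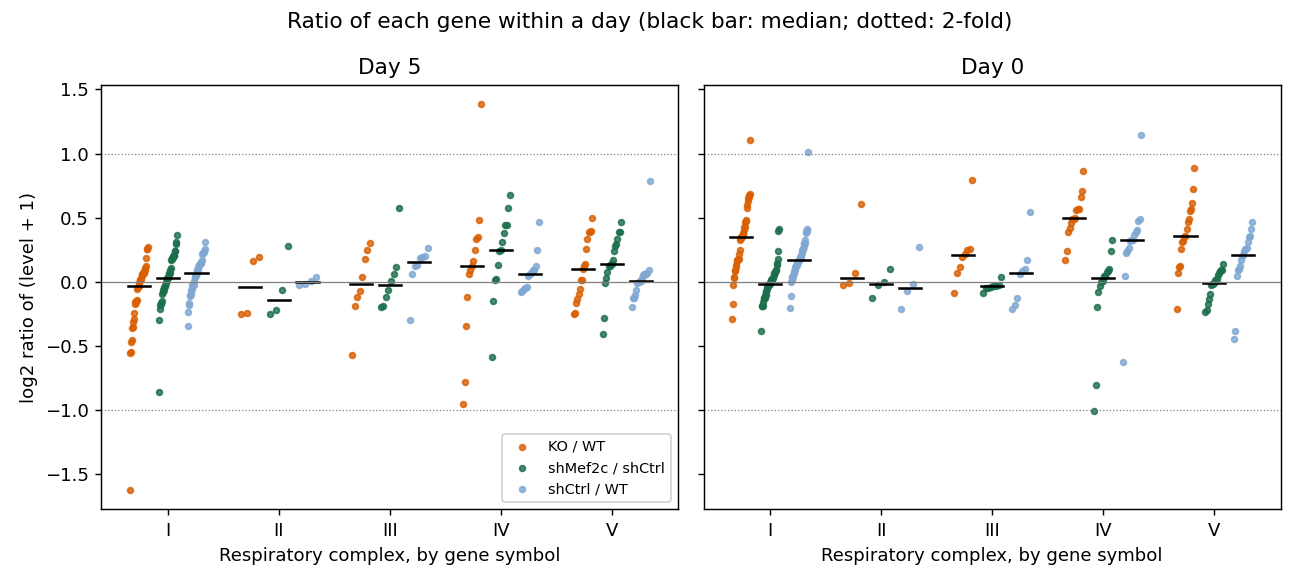
Log2 ratio of each gene by complex for KO over WT, shMef2c over shCtrl and shCtrl over WT, with day 5 on the left and day 0 on the right, black bars at the medians and dotted lines at 2-fold. At day 0 the KO over WT medians run from 0.029 in complex II to 0.50 in complex IV, and the shMef2c over shCtrl medians lie near 0.

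Transcript length moved with this result. Among all genes of under 600 nucleotides the median ratio of KO to WT at day 0 was 0.31, and in longer classes it was 0.098 (600 to 1000), 0.020 (1000 to 2000) and -0.0014 (2000 to 4000). The respiratory genes of those classes had medians of 0.46, 0.35, 0.21 and 0.10. All genes here include the members, so the length medians are not independent of them. Members were 31 of the 178 genes in the shortest class and 25 of the 660 in the next. The 3440 genes of over 4000 nucleotides, none of them a member, had a median of 0.038. With each ratio centred on the median of all genes of like length, the median over the members with a known length was 0.19. For shCtrl over WT it was 0.066. Genes of the cytosolic ribosome, also short, had medians of 0.21 for KO over WT and 0.29 for shCtrl over WT.

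**Figure D3:**
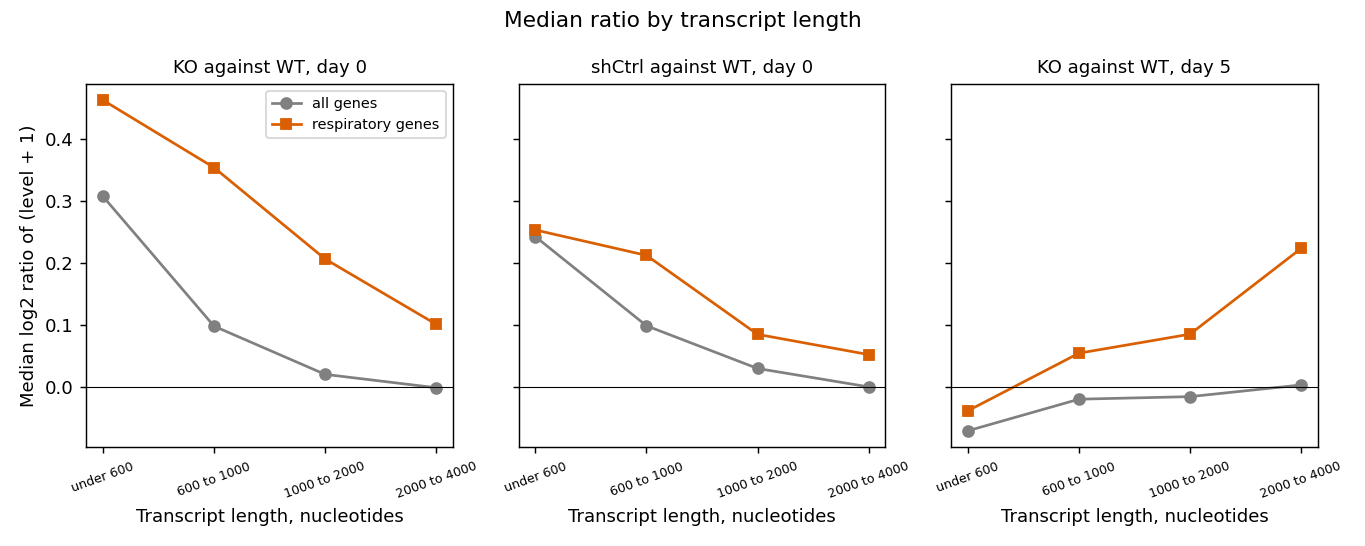
Median log2 ratio by class of transcript length, in nucleotides, for all genes (grey circles) and the respiratory genes (orange squares) in 3 comparisons. At day 0 both lines slope down with length, from 0.31 to -0.0014 for all genes and from 0.46 to 0.10 for the respiratory genes in KO over WT, and the respiratory line lies above the other; the 2000 to 4000 class holds 4 respiratory genes.

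The library labelled shMef2c lay close to shCtrl at day 0. The median log2 ratio was -0.015, against 0.033 over all genes. In it, 3 of the 81 genes were higher by 1.2-fold or more (14.4% of all) and 3 lower (5.04%). The higher ones were Ndufa1 (log2 0.41), Ndufb4c (0.40), a near copy of Ndufb4 whose value is uncertain for that reason, and Cox6b2 (0.32). The lower ones were Cox7c, Cox4i2, the lung isoform of a complex IV subunit at only 10.1 and 30 reads, and Ndufb10 (-0.39), a complex I subunit. Past 2-fold, none was higher (0.108% of all genes) and Cox7c alone was lower (0.0912%). Summed levels of 8 feeder fibroblast genes, given for these cultures on feeders, were 214 RPKM in shCtrl and 351 in the library labelled shMef2c, and their part in these ratios was not tested.

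Cox7c encodes a small subunit of complex IV and lies on chromosome 13, as Mef2c does. At day 0 it stood at 364 RPKM in WT, 539.6 in KO, 513 in shCtrl and 254 in the library labelled shMef2c. At day 5 it stood at 669 FPKM in WT, 712 in KO, 702 in shCtrl and 467 in shMef2c. On both days the library labelled shMef2c was the lowest of the 4. Its share of reads was 0.495 times that of shCtrl at day 0, with a counting interval of 0.471 to 0.521, and 0.661 times at day 5 (0.636 to 0.686). At day 0 the log2 ratio was -1.01, and 11 of 12065 genes had a ratio at or below it. At day 5, at -0.59, 1772 of 12974 genes did.

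Levels 1.5-fold or more below shCtrl on both days were seen for 16 of the 10948 genes in both tables, and Cox7c was the 1 respiratory gene of the symbol rule among them. Cox20, an assembly factor of complex IV that helps mature its second subunit, was another of the 16. It stood at 10.4, 19.1, 15.0 and 6.77 RPKM at day 0 in WT, KO, shCtrl and the library labelled shMef2c, and at 38.9, 34.9, 49.2 and 31.2 FPKM at day 5. The protein-coding genes between Mef2c and Cox7c in the RefSeq order were near shCtrl. Tmem161b, Ccnh and Rasa1 had log2 ratios of -0.091, 0.097 and 0.13 at day 0 and -0.20, 0.10 and -0.019 at day 5. Beyond them, Cetn3 stood at -0.087 and -0.32 on these days. Mblac2 stood at 0.16 and -0.42, Hapln1 at -0.041 and -0.24, and Edil3 at 0.33 and -0.98 (0.30 FPKM in shMef2c against 1.56 in shCtrl at day 5). All but Cetn3 had a mean below 1 on both days, and adding 1 to each level shrinks their ratios. The shares of reads of Mblac2, Hapln1 and Edil3 were 1.37, 0.57 and 2.03 times those of shCtrl at day 0. At day 5 they were 0.49, 0.50 and 0.19 times. By contrast, Cox4i1, the main isoform of subunit IV, was at 348 and 373 RPKM in shCtrl and the library labelled shMef2c at day 0, and at 370 and 502 FPKM at day 5.

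**Figure D4:**
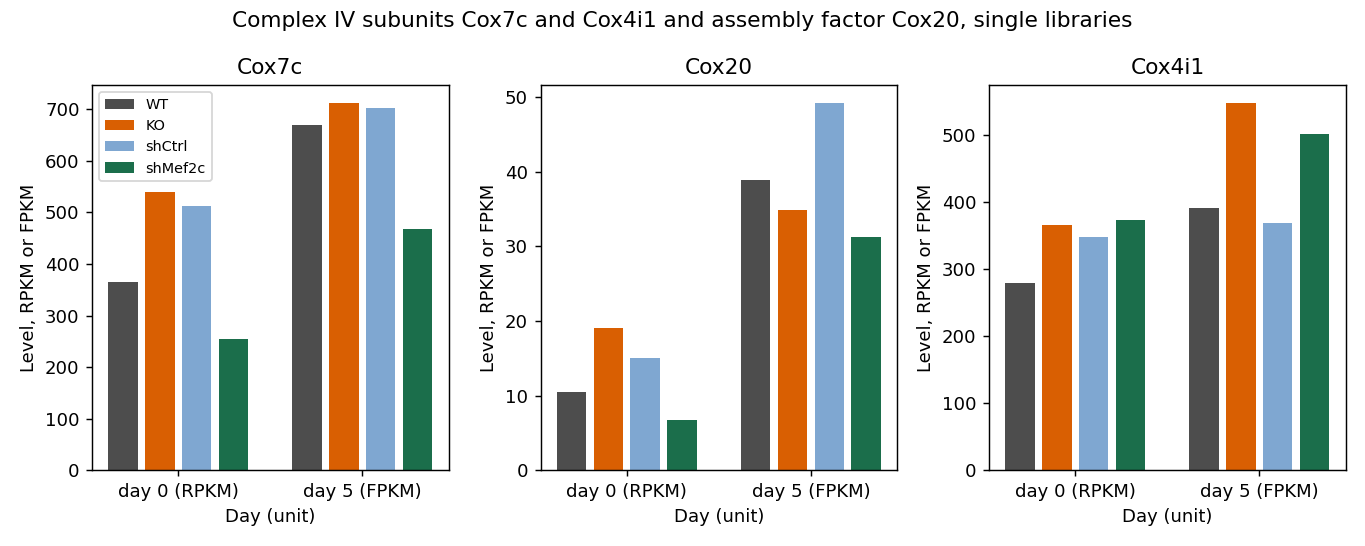
Level of Cox7c, Cox20 and Cox4i1 in the single library of each group, as bars from 0, in RPKM at day 0 and FPKM at day 5. The bar of the library labelled shMef2c is the lowest of the 4 for Cox7c and Cox20 on both days, and the highest for Cox4i1 at day 0.

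At day 5 the group as a whole differed little between KO and WT. The median log2 ratio of the 79 genes was 0.017, against -0.0055 over all 12974 genes. In KO, 11 genes were higher by 1.2-fold or more (24% of all) and 13 lower (26.8%). By 1.5-fold or more, 1 was higher (8.85%) and 3 lower (10.9%). Past 2-fold, 1 was higher (3.68%) and 1 lower (3.3%). Shares of the members past each fold were below those of all genes. The complexes leaned in different directions, with medians of 0.13 in complex IV, 0.099 in complex V, -0.014 in complex III, -0.032 in complex I and -0.039 in complex II. Atp5mpl, left out at day 5 by its symbol, stood at 335 FPKM in WT and 245 in KO (log2 -0.45). The lowest ratio among the counted genes of complex V was -0.26.

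The gene past 2-fold upward was Cox7a1, the heart and muscle isoform of a complex IV subunit. It stood at 5.49 FPKM in WT, 15.9 in KO, 7.98 in shCtrl and 13.3 in shMef2c, from 46, 131, 66 and 112 reads. Both perturbed libraries lay above both controls, which its choice as the member with the highest ratio in both pairs favours. The authors' deposited table gives 1.54 as the log2 ratio of KO to WT. The summed level of 8 muscle genes was 12.1, 4.35, 14.1 and 15.7 FPKM in that order. The gene past 2-fold downward was Ndufa4l2, a paralog of Ndufa4 known as a target of hypoxia signalling. It stood at 3.50 FPKM in WT, 0.46 in KO, 3.21 in shCtrl and 1.32 in shMef2c, with both perturbed libraries below both controls. Ndufa4l2 had the lowest ratio of the members in both pairs, and such a choice favours this order. The authors' deposited tables give log2 ratios of -2.93 (KO to WT) and -1.28 (shMef2c to shCtrl). Cox6b2, the testis isoform of a complex IV subunit, stood at 27.0, 13.5, 32.3 and 48.8 FPKM, lowest in KO and highest in shMef2c, and the deposited table gives -1.01 for KO over WT.

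Other high ratios of KO to WT belonged to Atp5s (log2 0.50, 179 against 106 reads), Cox4i1 (0.48), Atp5sl (0.40), Atp5g3 (0.39) and Atp5g1 (0.39). Atp5s stood at 2.37 FPKM in WT, 3.75 in KO, 4.81 in shCtrl and 3.38 in shMef2c, so that shCtrl was further above WT (log2 0.79) than KO was. Cox4i1 stood at 391 FPKM in WT, 548 in KO, 369.5 in shCtrl and 502 in shMef2c. Other low ones belonged to Cox7a2l (-0.78), Uqcrh (-0.57), the hinge protein of complex III, Ndufv3 (-0.55) and Ndufs5 (-0.54).

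Members on chromosome 17 stood apart with their chromosome. Of Cox7a2l, Ndufa11, Ndufa7, Ndufb10, Ndufv2 and Ndufv3, 5 of 6 were lower in KO than in WT at day 5, with a median log2 ratio of -0.39. Over all 614 genes of that chromosome the median was -0.30 and 79.8% were below 0. Among the other 73 members the median was 0.027 and 31 were below 0. Cox7a2l stood at 156 FPKM in WT, 90.2 in KO, 170.2 in shCtrl and 153 in shMef2c, lowest in KO. At day 0 the 617 genes of chromosome 17 had a median of -0.20 in KO over WT, and 73.1% were below 0. Its 6 members had a median of 0.13 there, against 0.36 for the other members. Ndufv2 and Ndufv3 were among the lowest members of that comparison. A like pattern stood at day 0 on chromosome 11, where Atp5g1, Atp5h, Uqcr10 and Uqcrq were all lower in shCtrl than in WT, with a median of -0.30. Over all 986 genes of that chromosome it was -0.44 and 91.5% were below 0, and in KO over WT it was -0.38 with the 4 members at 0.13. In the library labelled shMef2c over shCtrl it was 0.0024, with the 4 members at -0.034. The cause of these chromosome-wide shifts was not tested.

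In shMef2c at day 5 the group leaned higher than the rest of the genes. The median log2 ratio to shCtrl was 0.071, against -0.046 over all genes. The median was 0.025 with TPM and 0.17 with TMM factors. Transcript length moved with this ratio too. Over all genes the median was 0.034 under 600 nucleotides, 0.049 (600 to 1000), 0 (1000 to 2000), -0.043 (2000 to 4000) and -0.13 over 4000, where no member lies. The members of the first 4 classes had medians of 0.047, 0.13, 0.029 and 0.19, the last from 4 genes. Higher by 1.2-fold or more were 17 genes (23.8% of all) and lower 5 (31.3%). By 1.5-fold or more, 1 was higher (10.8%) and 2 lower (13.7%). None passed 2-fold (4.49% of all higher and 4.69% lower), although Ndufa4l2 was past 2-fold downward with a pseudocount of 0.1, TPM, TMM factors or DESeq2 size factors, and Cox7a1 past it upward against WT. The control pair at day 5 had a median of 0.057, with 3 genes higher by 1.2-fold or more (15.6%) and 2 lower (10.7%). Complex IV had a median of 0.25 in shMef2c over shCtrl, complex V 0.14, complex I 0.029, complex III -0.028 and complex II -0.14. The highest ratios were those of Cox7a1 (0.68), Cox6b2 (0.58), Uqcrc1 (0.58), a core protein of complex III, Atp5b (0.47) and Cox6c (0.44). Uqcrc1 stood at 97.4 FPKM in WT, 110 in KO, 78.8 in shCtrl and 118 in shMef2c, where the control libraries themselves differed. The lowest were those of Ndufa4l2 (-0.86), Cox7c (-0.59), Atp5s (-0.41), Ndufa2 (-0.30) and Atp5h (-0.29).

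Both perturbations at day 5, which share no control library, had 53 of 79 members on the same side of 0 (67.1%), against 69.5% of all genes. Higher by 1.2-fold or more in both were Atp5b, Atp5g3, Atp5sl, Cox4i1, Cox5a, Cox6c and Cox7a1, and lower in both was Ndufa4l2. These are 8.86% and 1.27% of the members, where 13.5% and 16.5% of all genes were higher or lower in both. Cox5a, a subunit of complex IV, stood at 227 FPKM in WT, 290 in KO, 218 in shCtrl and 283 in shMef2c. Atp5b stood at 699, 879, 608 and 842 FPKM. In both genes each perturbed library lay above both controls, which their choice as genes higher in both pairs favours.

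The members were steadier over the 4 libraries of day 5 than other genes. The highest library of a gene exceeded its lowest by a median of 1.24-fold, against 1.42-fold over all genes and 1.29-fold over the 1674 genes with a mean of 50 or more. Of the 79 genes, 69 stayed under 1.5-fold (87.3%), against 58.1% of all genes and 76.8% of those with a mean of 50 or more. At day 0 the median was 1.34-fold, against 1.31-fold over all genes and 1.24-fold over those with a mean of 50 or more, and 60 of 81 stayed under 1.5-fold (74.1%), against 73.7% and 82.3%.

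Isoform shares differed between the tables of day 0 and day 5. ATP synthase subunit c, which forms the rotating ring, is encoded by Atp5g1, Atp5g2 and Atp5g3, whose mature proteins are known to be the same. At day 0 Atp5g1 stood at 359, 376, 275 and 234 RPKM in WT, KO, shCtrl and the library labelled shMef2c, and made up 48.4%, 43.9%, 38.0% and 32.4% of the summed level of the 3 genes. At day 5 it made up 17.1%, 20.4%, 16.3% and 16.1%. Atp5g2 went from 30.2%, 28.6%, 34.8% and 38.6% to 51.2%, 41.6%, 52.6% and 49.6%. In the library labelled shMef2c its level was above that of Atp5g1 at day 0 too. The ranges of the days did not overlap for either gene. Atp5g1 lies on chromosome 11, whose genes as a whole were lower in shCtrl and KO than in WT at day 0. The library labelled shMef2c was near shCtrl there, with a chromosome median log2 ratio of 0.0024. This moves with the share of Atp5g1 on that day. As a within-table share, it is not affected by the scale of a whole library, although the tables differ in unit and processing. Cox7a1 likewise made up 15.9% to 27.3% of the level of Cox7a1 and Cox7a2 at day 0 and 5.18% to 11.8% at day 5. Cox4i1 made up over 99.3% of the level of Cox4i1 and Cox4i2 in every library.

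**Figure D5:**
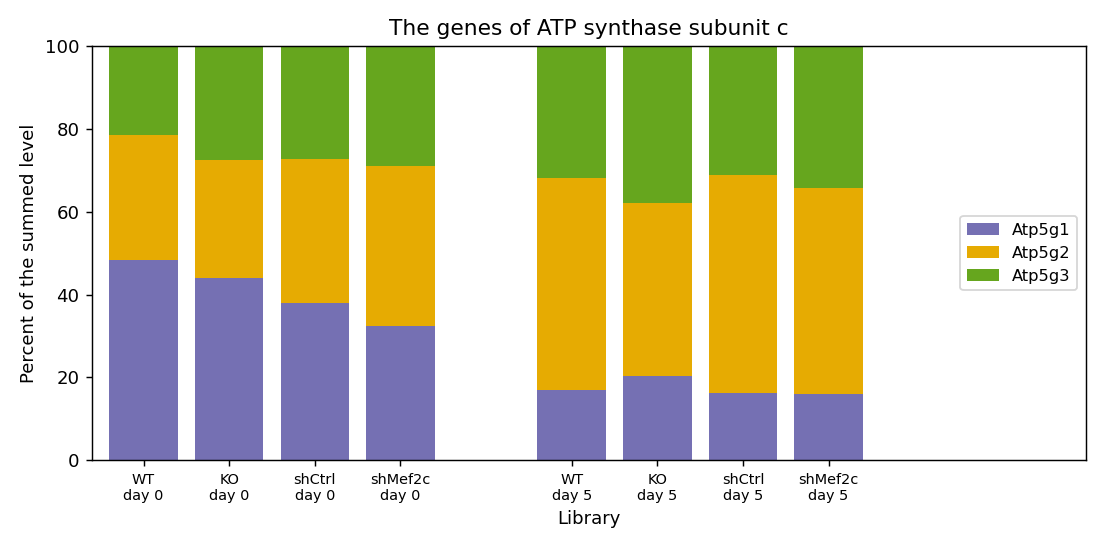
Share of Atp5g1, Atp5g2 and Atp5g3 in their summed level, in percent, for the 4 libraries of day 0 (left) and of day 5 (right). Atp5g1 holds 32.4% to 48.4% at day 0 and 16.1% to 20.4% at day 5.

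The days were compared within each line, with ratios centred on the median of all 10948 genes in both tables. This was done for the 79 genes that matched the rule by their day 5 symbol. The tables were normalized separately, and day, medium, feeders and table cannot be told apart. The centred median log2 ratio of day 5 to day 0 was 0.64 in WT, 0.26 in KO, 0.45 in shCtrl and 0.62 in shMef2c. In WT, 20 genes were higher by 2-fold or more (12.9% of all) and 2 lower (12.6%). In KO, 4 were higher (7.96%) and 2 lower (7.49%). In shCtrl, 12 were higher (12.4%) and 3 lower (13.1%), and in shMef2c 19 were higher (7.29%) and 2 lower (7.08%). Short genes as a whole moved too. Under 600 nucleotides the median of all genes, members included, was 0.96 in WT and 0.63 in KO, and that of the members 0.92 and 0.31. With ratios centred on genes of like length, the medians were 0.11 in WT, -0.12 in KO, 0.012 in shCtrl and 0.10 in shMef2c.

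The highest ratios in WT were those of Ndufa2 (2.56), Ndufa1 (2.00) and Ndufb2 (1.80), small accessory subunits of complex I. Ndufa2 stood at 20.6 to 45.4 RPKM at day 0 and 127 to 157 FPKM at day 5. Among the lowest were Ndufs5 (-4.12), Cox7a1 (-1.90), Atp5g1 (-0.88) and Ndufa4l2 (-0.85). Ndufs5, an iron-sulfur fraction subunit of complex I, stood at 50.8 to 68.6 RPKM at day 0 and at 1.05 to 1.99 FPKM at day 5. No other member differed as far between the tables, and since the tables were made separately, a change of this gene cannot be told apart from a difference between the tables.

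Other genes of respiration were taken from lists set beside the symbol rule. Of 14 assembly factors of complex I, 1 was higher and none lower by 1.5-fold or more in KO over WT at day 5, with a median of 0.042, and none was in shMef2c over shCtrl, with a median of 0.11. Of all genes, 8.85% were higher and 10.9% lower in KO, and 10.8% and 13.7% in shMef2c. Of 33 assembly factors of the other complexes, 1 was higher and 2 lower in KO, and none higher and 3 lower in shMef2c. Of 13 regulators of respiratory genes, 11 were above 0 in KO (median 0.26) and 12 in shMef2c (0.18), where 49.4% and 45.2% of all genes were, and 1 passed 1.5-fold upward in each (8.85% and 10.8% of all genes). Gabpa, a subunit of nuclear respiratory factor 2, stood at 16.6, 26.8, 15.9 and 20.3 FPKM in WT, KO, shCtrl and shMef2c. Pprc1, a coactivator, stood at 22.6, 32.8, 18.3 and 26.7. In both genes each perturbed library lay above both controls, which their choice after values were seen favours. Of 77 genes of the mitochondrial ribosome, 2 were higher and 2 lower in KO, and 4 higher and 1 lower in shMef2c, against the same shares of all genes as above.

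A list of glycolytic genes was set beside the respiratory ones. Of 20 glycolytic genes at day 5, 5 were higher and 5 lower by 1.5-fold or more in KO over WT, where 8.85% and 10.9% of all genes were. Against shCtrl, 5 were higher and 1 lower in shMef2c (10.8% and 13.7% of all genes). In the control pair, shCtrl over WT, 4 were higher and none lower, where 411 and 246 of all 12974 genes were. At day 0 none of the 20 was higher and 1 lower in KO over WT (6.28% and 6.66% of all genes). In shCtrl over WT at day 0, 2 were higher and none lower (404 and 418 of all 12065 genes). The day 0 medians of the list were 0.10 for KO over WT and 0.31 for shCtrl over WT. Ldha, which turns pyruvate into lactate, stood at 648 FPKM in WT, 212 in KO, 660 in shCtrl and 519 in shMef2c, lowest in KO. Pdk1, a kinase that holds back the entry of pyruvate into mitochondria, stood at 16.1, 32.2, 16.3 and 43.0, and both perturbed libraries lay above both controls. Ldha and Pdk1 were picked after values were seen, which favours these orders. Between the days the centred median of glycolysis was -0.81 in WT, -0.90 in KO, -0.70 in shCtrl and -0.76 in shMef2c, and that of the 16 genes of the citric acid cycle and pyruvate dehydrogenase 0.037, -0.0015, 0.043 and 0.12.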

How the data were processed

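Polyadenylated RNA of 8 cultures, 1 per group, was sequenced. Per the file headers, the authors deposited expected counts and FPKM values per gene for day 5. For day 0 they deposited RPKM values with estimated counts of reads. Day 5 files list no gene below 0.01 FPKM, and such genes were set to 0. The authors' deposited comparison tables hold log2 ratios and p-values adjusted as a false discovery rate, per the file headers. Tools in the submitters' processing notes are RSEM, Bowtie, Bowtie2, HISAT and HISAT2, and the build is mm9, all with no role. The sources used here do not give the strandedness of the counting, and values of overlapping or near-identical genes are uncertain. GRCm38.p6 was used for chromosomes, gene order and promoter windows only.

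Ratios are log2((value + 1)/(value + 1)) for genes with a mean of 1 or more over a day's 4 libraries, which understates changes of scarce genes. Single libraries allow no test, and genes are counted past a fold of 1.2, 1.5 or 2. Read ratios carry exact Clopper-Pearson 95% intervals, which cover counting error only. The ratio and interval code was tested on simulated data. Members and lists were chosen with earlier results of these data known. Named genes are core subunits, isoform groups, the 5 highest and lowest ratios per comparison, the extremes of level per complex and genes near the threshold. The values of Cox20, Gabpa, Pprc1, Ldha and Pdk1, and the choice of printed sequences, were picked after values were seen. Symbols of S6 kinases were removed from the ribosome list after it was seen to take them in, and with them its medians at day 0 were 0.18 for KO over WT and 0.26 for shCtrl over WT. Alternatives were a pseudocount of 0.1, other filters, TPM, centring, edgeR 4.0.16 TMM factors and DESeq2 1.42.0 size factors on the counts, other folds and the other control library. Python 3.11.15 and R 4.3.3 were used. Values of 1 core subunit named by the rule are not reported here.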

Additional observations from a re-analysis of the deposited data

Results flagged for a closer look

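Cox6b2, the testis isoform of a complex IV subunit, had opposite ratios of KO to WT on the 2 days. The log2 ratio was -0.95 at day 5 and 0.66 at day 0. At day 0 it stood at 14.4 RPKM in WT, 23.3 in KO and 33.1 in shCtrl, so that shCtrl was also above WT (log2 1.15), and at day 5 at 27.0, 13.5 and 32.3 FPKM. KO was below shCtrl on both days, so the signs were opposite against WT only. With 1 library per group, the difference between the days was not tested.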

How the results depend on the processing

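Medians kept their direction in most settings. With the other control library, the day 5 median for KO turned to -0.083 and the day 0 median for the library labelled shMef2c to 0.15, and the day 0 median for KO was 0.18. In the shMef2c pair at day 5 the median was 0.025 with TPM and 0.17 with TMM factors. In that pair at day 0 it was -0.077 with TMM factors, -0.084 with DESeq2 size factors, -0.047 when centred on all genes and -0.045 when centred by chromosome. Centring on genes of like length, chosen after seeing the data, gave 0.19 for KO over WT and 0.066 for shCtrl over WT at day 0. Between the days it gave 0.11 in WT, 0.012 in shCtrl and 0.10 in shMef2c, and reversed KO to -0.12. Counts past a fold move with the fold. For KO over WT at day 5 they were 24 at 1.2-fold, 4 at 1.5-fold and 0 at 4-fold, and 1 at 2-fold with a mean of 5 or more. For shMef2c at day 5 they were 22 at 1.2-fold and 3 at 1.5-fold. At 2-fold 1 gene passed with a pseudocount of 0.1, TPM, TMM factors, DESeq2 size factors or the other control, where 0 did. For shCtrl over WT at day 5 they were 5 and 1. At day 0 KO over WT gave 49, 15 and 0 at 1.2-, 1.5- and 4-fold, and 0 at 2-fold with the other control. The library labelled shMef2c gave 6, 2 and 0, and at 2-fold 2 genes with a pseudocount of 0.1, TMM factors or DESeq2 size factors and 0 when centred by length. The shCtrl over WT pair gave 29 at 1.2-fold and 0 at 4-fold, and at 2-fold 0 when centred by length and 1 by chromosome. The cause of these moves was not tested. No paired analysis was possible because each group has 1 library. Members with few reads, such as Ndufa4l2 and Ndufs5 at day 5, have wide counting intervals.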
